A study of Mus musculus with 9 samples.

Results

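The genes described here mark amacrine and horizontal cells, the inhibitory interneurons of the retina. They are 10 named genes of the 55487 in the gene table, chosen by their known roles: Gad1 and Gad2, Slc32a1, Slc6a9, Onecut2 and Calb1, Tfap2a, Tfap2b and Pax6, and Calb2. All 10 passed the filter on low counts that left 21049 genes for testing. RNA-seq was done on retinal explants of wild-type C57BL/6J mice taken at postnatal day 28 and kept for 48 h in culture at 5 mM glucose. The Control group held 5 libraries of untreated explants. The 2-DG group held 4 libraries of explants that also received 20 mM 2-deoxy-D-glucose, a glucose analogue that blocks glycolysis. All explants then spent 1 h in Krebs' Ringer medium, and all libraries carry the same batch label. Sclera and pigment epithelium were removed at dissection, and the number of retinas behind a library is not given in the sources used here.

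Amacrine cells shape signals in the inner retina and use GABA or glycine as their transmitter. Horizontal cells give lateral feedback to photoreceptors in the outer retina, and in the mouse they share several transcription factors and GABA-related genes with amacrine cells. GABA is made from glutamate by the decarboxylases encoded by Gad1 and Gad2 and is loaded, like glycine, into vesicles by the transporter encoded by Slc32a1. Glycinergic amacrine cells take up glycine through the transporter encoded by Slc6a9.

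Estimated counts summed to between 11317700 and 51802200 per library, and the 10 genes together took 0.0213% to 0.129% of them. Levels are given as CPM, a gene's counts relative to a library size scaled by the trimmed mean of M values (TMM), and 3 counts corresponded to 0.0556 to 0.255 CPM. Libraries differed in their content of other retinal cells. The summed CPM of 8 rod markers was 41430 in Control 2 and 4765 to 15715 in the other 8 libraries. Control 5 and 2-DG 4 had the lowest sums of 8 bipolar cell markers, 176 and 354 CPM against 549 to 2961 elsewhere, and the highest sums of 7 endothelial and pericyte markers, 2005 and 2508 CPM against 331 to 1084. 2-DG 3 stood out in 8 pigment epithelium markers, with 167 CPM against 3.82 to 32.6. Of these, 5 could be tested and 2 had an unadjusted p under 0.05, as did 1 of 4 astrocyte markers, against 7.25% of all genes. All 8 bipolar markers had a log2 fold change above 0, with group medians of the sum of 962 CPM in Control and 2115 CPM in 2-DG, and 0 of the 8 had an unadjusted p under 0.05. All 8 rod markers and all 8 ganglion cell markers had a log2 fold change below 0, 0 of either list with an unadjusted p under 0.05, while the medians of their sums were 8259 and 383 CPM in Control and 8572 and 452 CPM in 2-DG. Müller glia markers (8 genes) summed to 1839 to 6827 CPM in Control (median 3698) and to 843 to 3465 CPM in 2-DG (median 1548). Of these 8, 5 had a log2 fold change below 0 and 3 above 0, and 0 were called at an adjusted p of 0.05. At an unadjusted p under 0.05, 3 (Sox9, Slc1a3 and Glul) were lower in 2-DG, where the background was 4.83% of all genes. Their log2 fold changes were -2.20 ± 0.57, -1.07 ± 0.47 and -1.28 ± 0.58 (SE, edgeR adjusted p = 0.524, 0.689 and 0.689). The part of these markers in the values below was not tested. In such bulk samples, fewer cells of a type and less RNA per cell cannot be told apart.

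No gene of the 10 was called different between 2-DG and Control explants, and most of their confidence intervals were wide. At an adjusted p of 0.05 in edgeR's quasi-likelihood test, 0 of 10 were called, beside 0% of all genes tested. At an unadjusted p under 0.05 the count was also 0 of 10, where the background was 7.25% of all genes (1526 genes). DESeq2 called 284 genes and limma-voom with quality weights 1222 at an adjusted p of 0.05, and neither called any of the 10. The libraries of both groups overlapped in all 10 genes, against non-overlap in 2.93% of all genes. The log2 fold change (2-DG minus Control) was below 0 for 7 of 10 genes, against 50.8% of all genes, with a median of -0.02 beside -0.01 over all genes. The values of 3 of these 7, Onecut2, Tfap2a and Pax6, were close to 0 and turned above it when low counts were not filtered. The narrowest 95% confidence interval, that of Calb1, ran from 0.441-fold to 1.31-fold, and the widest, that of Calb2, from 0.238-fold to 3.04-fold. The intervals of 8 of the 10 genes held a 2-fold difference in both directions, so that a difference of that size was not detectable for them. Exact two-sided permutation tests of log2 CPM gave p from 0.333 to 0.873, where the smallest p that 5 against 4 libraries allow is 0.00794.

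**Figure D1:**
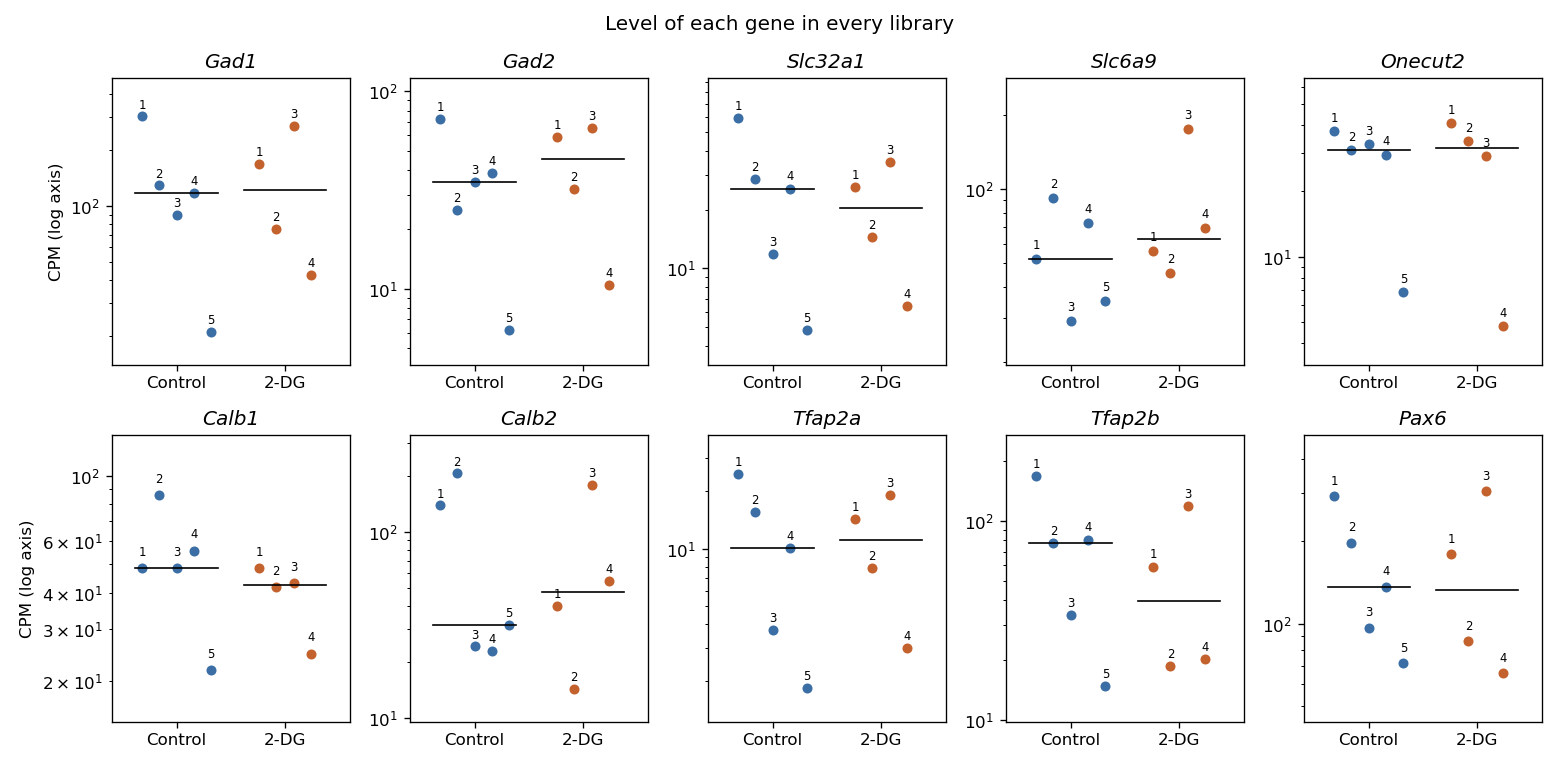
Level of each of the 10 genes in every library, in CPM on a log axis, with Control libraries in blue and 2-DG libraries in orange; numbers are replicate numbers and black lines are group medians. The groups overlap in every panel, and Control 5 or 2-DG 4 is the lowest library of its group in most panels.

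The letters before an annotated transcript start of 3 GABAergic genes are shown because these genes varied together across libraries. The Gad1 stretch lies inside the annotated gene, which begins at chr2:70553072, and ends just before the start of Gad1-201 at chr2:70562042. The stretches are the parts of RefSeq promoter windows (GRCm38.p6) that lie before both the RefSeq start and the gene's first annotated exon there, written 5′ to 3′ on the plus strand. Capitals mark matches to the AP-2 motif GCCNNNGGC, the site of the factors that Tfap2a and Tfap2b encode.
Gad1, chr2:70561879-70562041: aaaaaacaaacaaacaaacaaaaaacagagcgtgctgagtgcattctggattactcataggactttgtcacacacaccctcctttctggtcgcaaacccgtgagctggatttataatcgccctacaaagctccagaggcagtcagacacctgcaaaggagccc
Gad2, chr2:22622077-22622204: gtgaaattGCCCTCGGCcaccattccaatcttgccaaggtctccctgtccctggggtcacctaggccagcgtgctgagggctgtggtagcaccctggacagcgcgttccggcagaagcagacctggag
Slc32a1, chr2:158610508-158610757: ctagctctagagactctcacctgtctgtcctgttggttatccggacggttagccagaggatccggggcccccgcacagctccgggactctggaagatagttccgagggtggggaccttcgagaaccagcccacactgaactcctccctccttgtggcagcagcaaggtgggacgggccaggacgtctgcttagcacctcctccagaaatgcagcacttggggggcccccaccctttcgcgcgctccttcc

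The Gad2 stretch held 1 match and the Gad1 and Slc32a1 stretches held 0. No annotated Gad2 transcript starts within 50 bases of the RefSeq start of the Gad2 window. RefSeq windows of 250 bases before to 50 bases after the start were matched for 7 of the 10 genes, as 11 windows. On both strands, the AP-2 motif lay in 2 of these 11 windows (1 of Gad2 and 1 of Pax6), where 16.6% of all 32851 windows held it. The Onecut motif ATCAAT lay in 2 of the 11 (1 of Tfap2b and 1 of Slc6a9), where 7.54% of all windows held it. That Tfap2b window belongs to Tfap2b-202, which made up 0.662% to 6.15% of the Tfap2b transcript estimates, and no annotated Slc6a9 transcript starts within 50 bases of the start in that Slc6a9 window. A match describes the letters and is not a measured site.

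GABA synthesis genes were compared first. Gad1 (ENSMUSG00000070880, GRCm38 chr2:70553072-70602014) was at 304, 129, 89.6, 118 and 21.0 CPM in Control 1 to 5 and at 169, 75.3, 270.3 and 42.7 CPM in 2-DG 1 to 4. Control 1 and 2-DG 3 were high and Control 5 and 2-DG 4 low, so that the spread within each group was larger than the distance between groups. 2-DG minus Control gave a log2 fold change of 0.07 ± 0.68 (SE, n = 5 and 4, edgeR adjusted p = 0.987). Gad2 (ENSMUSG00000026787, chr2:22622205-22693874) followed the same libraries, with 72.8, 25.1, 34.6, 38.6 and 6.20 CPM in Control and 58.8, 31.9, 65.3 and 10.4 CPM in 2-DG. Its log2 fold change was 0.23 ± 0.64 (SE, edgeR adjusted p = 0.946).

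Slc32a1 (ENSMUSG00000037771, chr2:158610767-158615748), the vesicular transporter, was at 59.0, 28.7, 11.8, 25.7 and 4.81 CPM in Control and at 26.1, 14.5, 35.1 and 6.41 CPM in 2-DG. Its order of libraries again ran from Control 1 at the top to Control 5 at the bottom. It had a log2 fold change of -0.34 ± 0.66 (SE, edgeR adjusted p = 0.919). The ratio of Slc32a1 to Gad1 lay between 0.130 and 0.229 over the 9 libraries, a 1.76-fold range. This ratio was 0.132 to 0.229 in Control (median 0.217) and 0.130 to 0.192 in 2-DG (median 0.153), and the difference was not tested. The sum of Gad1 and Gad2 ranged 13.8-fold. Without Control 5 and 2-DG 4 the sum ranged 3.52-fold and the ratio 1.71-fold.

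Slc6a9 (ENSMUSG00000028542, chr4:117834506-117875198), the glycinergic gene, behaved differently between libraries. It was at 52.0, 92.1, 29.2, 72.7 and 35.1 CPM in Control and at 55.9, 45.8, 175 and 69.5 CPM in 2-DG. 2-DG 4, the lowest 2-DG library in Gad1, was the second highest in Slc6a9, and Control 1, the highest Control library in Gad1, was at the group median. Its log2 fold change of 0.62 ± 0.45 (SE, edgeR adjusted p = 0.792) was the largest of the 10 genes in size, and without 2-DG 3 it was 0.02. Slc6a9 shares 1429 exon bases with Ccdc24 on the opposite strand, which had 436 to 5651 estimated counts per library. The library kit keeps strand, but how strand was used in the counting is not given in the sources used here, so Slc6a9 levels are uncertain.

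Horizontal cell genes were compared next. Onecut2 (ENSMUSG00000045991, chr18:64340020-64400987), a transcription factor needed for horizontal cell formation, was at 37.7, 30.9, 32.9, 29.4 and 6.88 CPM in Control and at 41.0, 33.9, 28.8 and 4.80 CPM in 2-DG. The 7 libraries other than Control 5 and 2-DG 4 lay within a 1.42-fold range, whereas those 2 libraries were far below. Onecut2 had a log2 fold change of -0.02 ± 0.58 (SE, edgeR adjusted p = 0.995).

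Calb1 (ENSMUSG00000028222, chr4:15881264-15908064) encodes calbindin, a calcium-binding protein of horizontal cells that some amacrine and ganglion cells also make. It was at 48.5, 85.9, 48.6, 55.6 and 21.8 CPM in Control and at 48.6, 41.7, 43.1 and 24.8 CPM in 2-DG. All 4 2-DG libraries were below the Control mean, but they lay inside the Control range. For Calb1 the log2 fold change was -0.40 ± 0.35 (SE, edgeR adjusted p = 0.827), and leaving out single libraries gave -0.60 to -0.14.

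The transcription factors Tfap2a and Tfap2b are needed for amacrine and horizontal cell development, and Pax6 is kept in mature amacrine, horizontal and ganglion cells. Tfap2a (ENSMUSG00000021359, chr13:40715302-40738376) was at 24.6, 15.5, 3.74, 10.1 and 1.84 CPM in Control and at 14.3, 7.87, 19.3 and 3.00 CPM in 2-DG. Tfap2b (ENSMUSG00000025927, chr1:19208914-19238576) was at 168.5, 77.4, 33.7, 80.8 and 14.8 CPM in Control and at 59.1, 18.7, 118.8 and 20.3 CPM in 2-DG. Both were highest in Control 1 and lowest in Control 5 among the Control libraries. Tfap2a shares exon bases with 3 antisense genes that had up to 37.97 estimated counts per library, beside 48.9 to 1039 for Tfap2a, so its low values are uncertain. The log2 fold changes were -0.01 ± 0.72 for Tfap2a and -0.47 ± 0.71 for Tfap2b (SE, edgeR adjusted p = 0.998 and 0.893). Without 2-DG 3 the value for Tfap2b was -1.20, and without Control 1 it was 0.07.

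Pax6 (ENSMUSG00000027168, chr2:105668900-105697364) was at 292, 197.5, 96.8, 136 and 71.9 CPM in Control and at 179.5, 86.2, 304.0 and 65.9 CPM in 2-DG. Control 1 and 2-DG 3 were again the highest libraries of their groups. Its log2 fold change was -0.00013 ± 0.51 (SE, edgeR adjusted p = 1.000).

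Calb2 (ENSMUSG00000003657, chr8:110137502-110168210) encodes calretinin, found in several amacrine types and in ganglion cells. It was at 138.8, 206.8, 24.2, 22.9 and 31.7 CPM in Control and at 40.1, 14.3, 179.7 and 54.6 CPM in 2-DG. Control 1, Control 2 and 2-DG 3 were high and the other 6 libraries were at 54.6 CPM or below. The summed CPM of 8 ganglion cell markers was highest in the same 3 libraries, at 898, 1505 and 762 CPM against 217 to 472 elsewhere, and its part in the Calb2 values was not tested. Calb2 had a log2 fold change of -0.23 ± 0.83 (SE, edgeR adjusted p = 0.959).

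**Figure D2:**
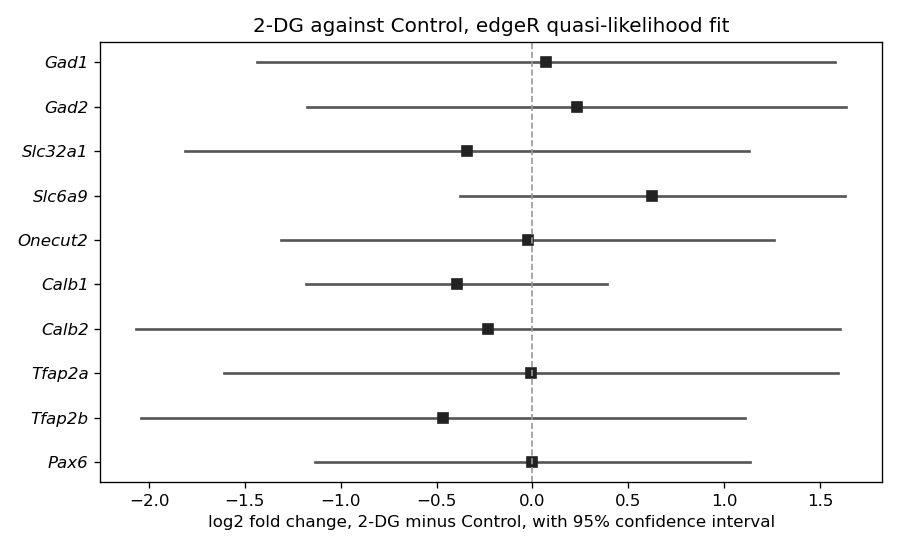
Fitted log2 fold change (2-DG minus Control) of the 10 genes from edgeR's quasi-likelihood fit, with bars for the 95% confidence interval and a dashed line at no difference. All intervals include 0, and that of Calb1 is the narrowest.

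Spread between libraries of a group was high for most of these genes. The within-group standard deviation of log2 CPM lay at the 94.7th percentile of all genes tested for Calb2, at the 92.2nd for Tfap2a and between the 87.3rd and 90.8th for Tfap2b, Gad1, Gad2, Slc32a1 and Onecut2. It lay at the 72.3rd percentile for Pax6, the 63.2nd for Slc6a9 and the 49.2nd for Calb1. Within Control, the highest library exceeded the lowest 14.5-fold for Gad1 and 3.16-fold for Slc6a9. Control 5 was the lowest Control library in 8 of the 10 genes and 2-DG 4 the lowest 2-DG library in 7. Both libraries also had low bipolar and high vascular marker sums; the part of these in the values was not tested. With both left out, 0 of 10 genes were called.

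**Figure D3:**
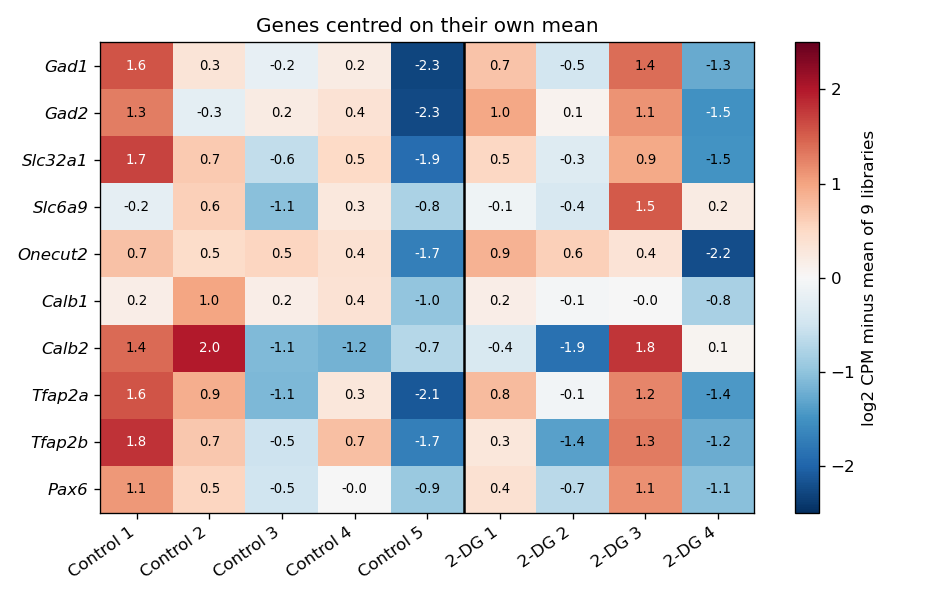
Log2 CPM of each gene minus its mean over the 9 libraries, with genes in rows, libraries in columns and a line between the groups. Control 1 and 2-DG 3 are above the mean in GABAergic and transcription factor genes, and Control 5 and 2-DG 4 are below it in most rows.

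Library profiles were compared through the mean absolute difference of centred log2 CPM over the 9 libraries, where a smaller value means a more similar profile. Slc32a1 and Tfap2a were nearest to each other (0.24), Gad1 and Tfap2b were each nearest to Slc32a1 (0.28 for both), and Gad2 to Gad1 (0.31). Onecut2, Calb1 and Slc6a9 had no member nearer than 0.47, 0.52 and 0.53, and Calb2 none nearer than 0.74. Among 13319 protein-coding genes, the profiles most like Gad1 were those of Scn2b (0.15), a sodium channel subunit, Pnmal2 (0.17) and Grik2 (0.17), a kainate receptor subunit, against a median of 1.01. Those most like Slc6a9 were Kcnip2 (0.26), a potassium channel-interacting protein, Mab21l2 (0.34) and Klhl33 (0.34), against a median of 0.70. Those most like Onecut2 were St8sia5 (0.10), a sialyltransferase, Cttnbp2 (0.15) and Fmn2 (0.18), against a median of 0.92. All profiles share the same 9 libraries.

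To contrast the classes, Gad1 and Gad2 were summed for GABA synthesis, Slc6a9 stood for glycinergic cells, and Onecut2 and Calb1 were summed for horizontal cells. The GABA to glycinergic ratio was 0.776 to 7.26 in Control libraries (median 2.15) and 0.764 to 4.07 in 2-DG libraries (median 2.13). The GABA to horizontal ratio was 0.950 to 4.38 in Control (median 1.52) and 1.42 to 4.67 in 2-DG (median 2.17). The glycinergic to horizontal ratio was 0.358 to 1.22 in Control (median 0.788) and 0.605 to 2.44 in 2-DG (median 1.49). The ranges of both groups overlapped in each ratio. In 2-DG 3 and 2-DG 4 the glycinergic to horizontal ratio was 2.44 and 2.35, above all Control libraries. 2-DG 1 and 2-DG 2 were at 0.624 and 0.605, inside the Control range. Slc6a9 and the horizontal sum were at 175 and 71.9 CPM in 2-DG 3, and at 69.5 and 29.6 CPM in 2-DG 4. The overlap of Slc6a9 with Ccdc24 makes the ratios with Slc6a9 uncertain too. Without Control 5 and 2-DG 4, the horizontal sum ranged 1.62-fold over 7 libraries and the glycinergic gene 6.01-fold.

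**Figure D4:**
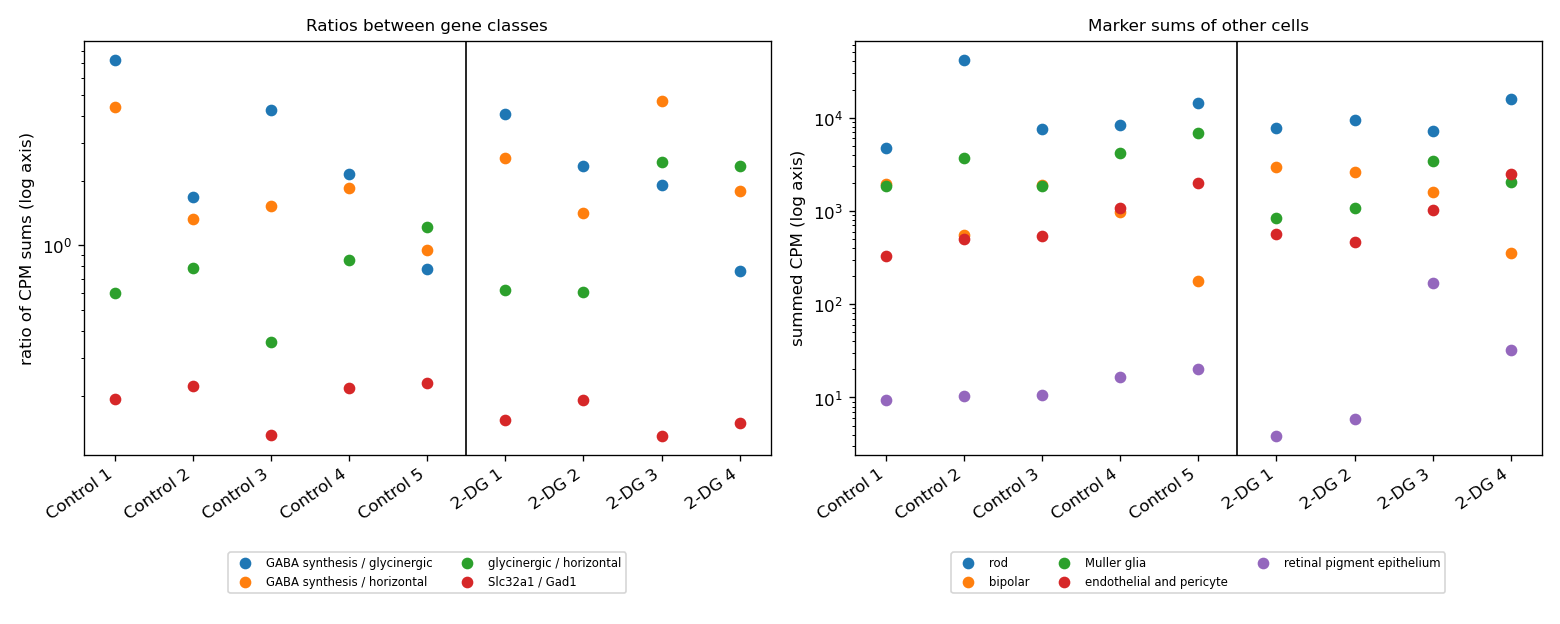
Left, ratios of summed CPM between gene classes in each library; right, summed CPM of marker genes of other cells; both on log axes, with a line between Control and 2-DG. The Slc32a1 to Gad1 ratio lies between 0.130 and 0.229. Control 5 and 2-DG 4 have the lowest bipolar and highest endothelial and pericyte sums.

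Levels between genes were compared per length, as TPM computed from the transcript estimates and annotated lengths. The Control median was 156 TPM for Pax6, 72.7 for Gad1, 44.5 for Slc6a9, 41.7 for Calb2, 32.8 for Calb1, 24.2 for Tfap2b, 17.2 for Slc32a1, 13.6 for Gad2, 7.02 for Tfap2a and 3.65 for Onecut2. The Control ranges of neighbours in this order overlapped in every case: Gad1, for example, ran from 12.2 to 243 TPM and Slc6a9 from 21.8 to 55.9 TPM. In 2-DG, Pax6, Gad1, Calb1, Tfap2a and Onecut2 kept their ranks.

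Transcripts were tested in a separate fit. Of 69 annotated transcripts of the 10 genes, 43 were tested, 0 were called at an adjusted p of 0.05 (0% of 62900 transcripts), and 1, Calb1-202, had an unadjusted p under 0.05, where the background was 3.45%. For the 6 genes with at least 2 tested transcripts, the transcript with the highest mean TPM was taken and its share of the gene's summed estimated counts compared, along with the Pax6 exon 5a, as 7 exact two-sided permutation tests chosen after the transcript values were seen. Slc6a9-202 made up 71.3%, 77.4%, 69.9%, 77.8% and 71.4% of the summed Slc6a9 transcript estimates in Control and 65.9%, 69.6%, 66.4% and 66.7% in 2-DG. All 2-DG libraries were below all Control libraries, by 6.37 percentage points on average (exact permutation p = 0.0159, 0.111 after Benjamini-Hochberg adjustment over the 7), so the difference did not pass the correction. The overlap with Ccdc24 makes these estimates uncertain too. Gad1-206, highest in mean TPM for Gad1, is annotated as a processed transcript, and its share was 24.0% to 79.6% in Control and 32.9% to 60.9% in 2-DG. The protein-coding Gad1-201 had the larger share of counts in 6 of 9 libraries, with 19.8% to 72.8% in Control and 36.5% to 61.4% in 2-DG. For Pax6, Pax6-210 was highest in mean TPM, but the protein-coding Pax6-204 had the larger share of counts in all 9 libraries (Control medians 13.2% and 29.1%).

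Pax6 exon 5a inserts residues into the paired domain and changes its DNA binding. Its sequence is shown because it is what tells the isoforms apart; it lies at GRCm38 chr2:105684751-105684792 on the plus strand and is 42 bases long.
Pax6 exon 5a: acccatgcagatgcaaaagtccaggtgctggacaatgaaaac
Transcripts with the exon made up 46.8%, 23.0%, 44.3%, 37.7% and 26.3% of the protein-coding transcripts spanning it in Control and 50.6%, 39.0%, 46.0% and 28.8% in 2-DG. Control 2, Control 5 and 2-DG 4 were lowest, and the groups overlapped (exact permutation p = 0.437, 0.764 adjusted over the 7). The 3 libraries with the lowest share also had the 3 highest rod marker sums; this was not tested.

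**Figure D5:**
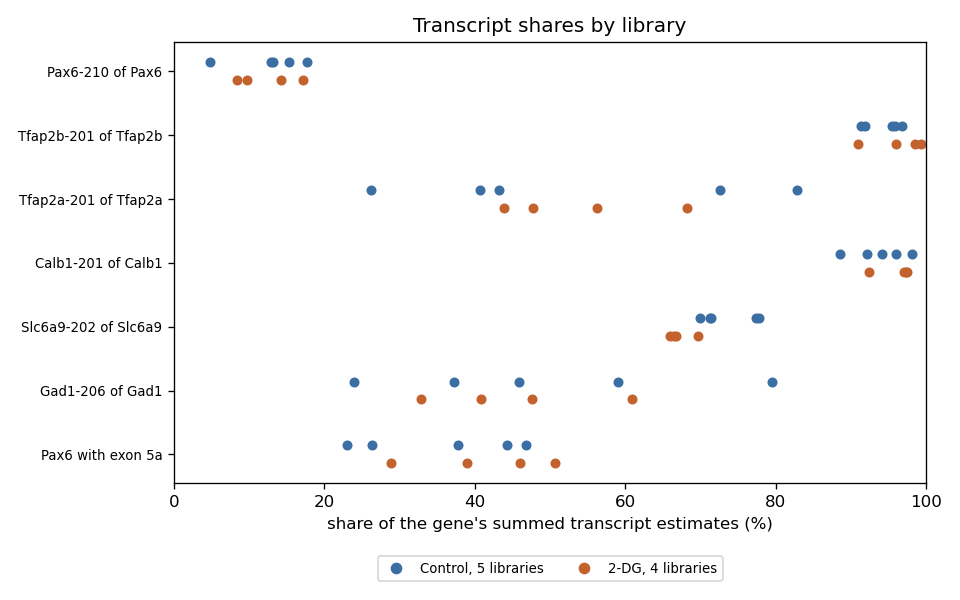
Share of 1 transcript of each of 6 genes, that with the highest mean TPM, in the gene's summed transcript estimates, and share of exon 5a transcripts among the Pax6 protein-coding transcripts spanning that exon, in percent, with 1 point per library. The groups are apart in Slc6a9-202, where Control runs from 69.9% to 77.8% and 2-DG from 65.9% to 69.6%.

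A wider set of 54 genes of the same cells was examined, of which 52 could be tested (Ptf1a and Foxn4 were too low). At an adjusted p of 0.05, 0 were called, and at an unadjusted p under 0.05, 2 were higher and 3 lower, where the background was 2.42% and 4.83% of all genes. This count of 5 was 1 without Control 3, without Control 4 or without Control 5, 2 without 2-DG 2 or without 2-DG 4, 3 without Control 1 or without 2-DG 1, and 1 with both Control 5 and 2-DG 4 left out. Among 11 genes of GABA and glycine transport and breakdown, 5 were above and 6 below 0 in log2 fold change (median -0.04). Slc6a13, a GABA transporter, had the smallest p, with 1.30 to 2.23 CPM in Control and 1.44, 4.14, 18.4 and 1.12 CPM in 2-DG, so that 2-DG 3 alone was far above. The pigment epithelium marker sum was also highest in 2-DG 3, at 167 CPM against 3.82 to 32.6 CPM, and its part in the Slc6a13 value was not tested. Its log2 fold change was 1.81 ± 0.75 (SE, edgeR adjusted p = 0.658). Gcsh, a subunit of the glycine cleavage system, had a log2 fold change of 0.22 ± 0.22 (SE, edgeR adjusted p = 0.840).

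Among 22 amacrine subtype genes, 8 were above and 14 below 0 (median -0.49). Tac1, which encodes the substance P precursor, was at 52.6, 19.6, 33.8, 53.2 and 60.1 CPM in Control and at 28.01, 11.9, 26.8 and 13.7 CPM in 2-DG. All 4 2-DG libraries were below the Control mean, with a log2 fold change of -1.13 ± 0.39 (SE, edgeR adjusted p = 0.597). Stx1a, a presynaptic SNARE protein, was at 6.48 to 12.53 CPM in Control and 14.4 to 15.8 CPM in 2-DG, without overlap, and its log2 fold change was 0.59 ± 0.25 (SE, edgeR adjusted p = 0.682). Slc17a8, a vesicular glutamate transporter of some amacrine cells, had a log2 fold change of -1.46 ± 0.66, and the neuropeptide gene Npy one of -0.94 ± 0.42 (SE, edgeR adjusted p = 0.689 for both). Npy, outside the rule for named genes, is given because it completes the 5 genes with an unadjusted p under 0.05. Tac1 and Stx1a passed an adjusted p of 0.05 in limma-voom with quality weights (0.0426 and 0.0369), where 1222 genes in all were called.

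Of 9 developmental regulators tested, 7 were above 0 and 2 below, with the smallest p for Tfap2e at a log2 fold change of -1.08 ± 0.89, Tcf4 at 0.36 ± 0.37 and Isl1 at 0.84 ± 0.90 (SE, edgeR adjusted p = 0.820, 0.843 and 0.851). Of 10 further horizontal cell genes, 3 were above and 7 below 0 (median -0.16), and 0 had an unadjusted p under 0.05. Megf10 and Megf11, receptors that space horizontal cells, were at 17.0 to 39.0 and 5.23 to 38.3 CPM in Control and at 6.72 to 28.6 and 3.60 to 18.3 CPM in 2-DG. They had log2 fold changes of -0.56 ± 0.40 and -0.79 ± 0.61 (SE, edgeR adjusted p = 0.790 and 0.805). Prox1, a transcription factor of horizontal and AII amacrine cells that bipolar cells also use, had a log2 fold change of 0.69 ± 0.70 (SE, edgeR adjusted p = 0.841), and was lowest in Control 5 and 2-DG 4. Isl1, which bipolar cells also express, was lowest in the same libraries, as was the bipolar marker sum, whose part in both values was not tested.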

How the data were processed

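RNA-seq of 9 libraries was analysed, grouped by sample title into 5 Control and 4 2-DG. The protocol text is the same for every sample and names 2-DG, so the group rests on the titles and treatment labels. Titles call the samples biological replicates; p-values measure the spread between these samples. The kit was stranded and took 4 ng of total RNA through 13 PCR cycles; paired reads had 101 bases. The authors deposited estimated counts per gene and per transcript, not scaled between libraries, and the submitters' processing notes name kallisto and GRCm38, with neither role nor version; how strand was used and how transcripts were summed to genes are not given in the sources used here. The authors also deposited CPM, used only as an alternative here, and a table of their own comparison (fold changes and p-values), not used.

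Estimated counts were rounded, which changed a library total by at most 0.00377%. Genes were kept with filterByExpr, scaled with TMM and tested with edgeR 4.0.16 (R 4.3.3; glmQLFit with legacy=TRUE, glmQLFTest), with group alone in the model and all 9 libraries in 1 fit. Benjamini-Hochberg adjustment ran over 21049 genes, and over 62900 transcripts in a separate fit. The threshold was an adjusted p of 0.05. TPM were computed from transcript estimates and annotated lengths, since effective lengths were not used here. Coordinates and exons are from GENCODE M21 on GRCm38; promoters are from RefSeq. The fit was also run on simulated counts, with the same spread for all genes and only changes larger than 2-fold. That run does not show what the fit can detect for the genes described here.

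The text names all 10 genes, the 3 smallest p of each wider list, and the 3 protein-coding genes with a mean log2 CPM of at least 1 whose profile was nearest to Gad1, Slc6a9 and Onecut2; 1 gene that the rule names is not reported here. The members and lists were chosen with earlier results of these data known. Alternatives were other scalings, no filter, DESeq2 1.42.0, limma-voom (limma 3.58.1) with quality weights, robust dispersion, a replicate block, the deposited CPM, a permutation scale with a pseudocount of 0.5, and leaving out each library. Leaving out both Control 5 and 2-DG 4, and the transcript shares, were added after seeing the data. Intervals and floors cover the errors the fit and counting give, not PCR duplication.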

Additional observations from a re-analysis of the deposited data

Results flagged for a closer look

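In 76 groups of 4 or 5 libraries examined with Dixon's gap criterion, 5 held a library far from the others; chance alone flags about 1 group in 20. Onecut2 was at 6.88 CPM in Control 5, against 29.4 to 37.7 CPM in the other 4 Control libraries. The ratio of GABA synthesis to horizontal cell genes was 4.38 in Control 1, against 0.950 to 1.84 in the other Control libraries. Calb1-201 made up 92.4% of the Calb1 transcript estimates in 2-DG 4, against 97.1% to 97.4% in the other 2-DG libraries. Rod markers summed to 41430 CPM in Control 2, against 4765 to 14424 CPM in the other Control libraries. Microglia markers summed to 55.1 CPM in 2-DG 3, against 9.21 to 15.7 CPM in the other 2-DG libraries.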

How the results depend on the processing

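Of the 10 genes, 0 were called, and 0 had an unadjusted p under 0.05, under every alternative run. Over all genes, DESeq2 called 284 and limma-voom with quality weights 1222, against 0; voom also called 2 genes of the wider lists (Tac1 and Stx1a), against 0 otherwise. Leaving out single libraries gave 0 to 16 called genes, 16 without Control 2 and 2 without 2-DG 4. At an unadjusted p under 0.05 the count over all genes was 1526, and it was 2642 with no filter, 5474 with voom, 921 without Control 4 and 2721 without 2-DG 4. For the wider lists it was 5, and it was 2 with library size only and 3 with the replicate block. Log2 fold changes of several members changed sign. The replicate block gave -0.44 for Gad1 and -0.21 for Gad2 and called 0 genes. Same-numbered libraries correlated at 0.45, -0.15, 0.10 and 0.21 over genes. The 2-DG library most correlated with Control 1 and with Control 4 had the same number, whereas for Control 2 and Control 3 it had another. These values cannot tell whether the numbers pair the samples. No filter on low counts gave 0.013 for Onecut2, 0.029 for Tfap2a and 0.039 for Pax6, voom gave 0.29, 0.42 and 0.068, and leaving out both Control 5 and 2-DG 4 gave 0.056, 0.016 and 0.058. Tfap2a was 0.19 on the permutation scale and 0.11 on the deposited CPM, and Pax6 was 0.0018 with DESeq2 size factors and with the DESeq2 test. Leaving out single libraries gave -0.47 to 0.64 for Gad1, -0.074 to 0.67 for Gad2, -0.73 to 0.21 for Slc32a1, -0.28 to 0.33 for Onecut2, -0.42 to 0.51 for Tfap2a, -1.20 to 0.070 for Tfap2b, -0.52 to 0.34 for Pax6 and -1.22 to 0.41 for Calb2. The lowest of these came without 2-DG 3, except for Onecut2 (without Control 5), and the highest without Control 1, except for Onecut2 (without 2-DG 4) and Calb2 (without Control 2). Slc6a9 stayed above 0 and Calb1 below 0 under every alternative run. The cause of these shifts was not tested. The lowest estimated count of any member was 48.9 (Tfap2a in Control 3), against a floor of 3.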
